A study of Mus musculus with 4 samples.

Results

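The study followed retinal differentiation of stem cells, and 9 genes are described here that mark neuroretina progenitors or the first steps towards retinal neurons: Mab21l1, Mab21l2, Rorb, Hmx1, Vsx1, Fgf15, Crb1, Atoh7 and Crx. They were taken by symbol from the deposited values, with 1 probe set per gene, the one with the highest mean over the 4 arrays among those naming that gene alone. All 9 of 9 were found, among 22180 genes measured this way. The samples were retinal aggregates grown from wild-type mouse embryonic stem cells, 2 arrays at day 7 of retinal differentiation and 2 at day 4, 1 sample per array. Every sample came from the same line, an EB5 derivative of strain 129/Ola with GFP knocked in under the Rx (Rax) promoter, cultured in medium with matrigel. All arrays measured total RNA of whole aggregates, so fewer cells of a type and less RNA per cell cannot be told apart. No label tells if replicates came from separate cultures, and the p-values therefore reflect the spread among 4 arrays that may be technical repeats.

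The neuroretina forms from the inner layer of the optic cup, where dividing progenitors give rise to ganglion cells first and to photoreceptors and bipolar cells later. Progenitors are held in that state by homeodomain factors, Notch signalling and an apical junction belt in which Crumbs proteins sit. Atoh7 opens the ganglion cell path and Crx the photoreceptor path, so these genes normally come on after the progenitor factors. Vsx1 belongs to bipolar cells, the neurons that link photoreceptors to ganglion cells.

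At day 7, 3 of the 9 genes were higher than at day 4 and 0 were lower, by limma's test with an adjusted p under 0.05 over all genes. The 3 were the Mab21 genes, Mab21l1 and Mab21l2, and the nuclear receptor gene Rorb. By the same test 6.15% of all genes were higher at day 7 and 4.33% lower, 10.5% together. The median log2 difference of the 9 genes was 0.01, and over all genes it was 0.00. Both day 7 values lay above both day 4 values for 4 of the 9 genes, against 25.6% of all genes, and below them for 3, against 25.1% of all genes, together 7 of 9 against 50.8%. The other 2, Atoh7 and Crx, overlapped between days. The 6 genes that were not called differed by -0.59 to 0.34 on the log2 scale, on which a difference of 1 is a 2-fold difference in signal.

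**Figure D1:**
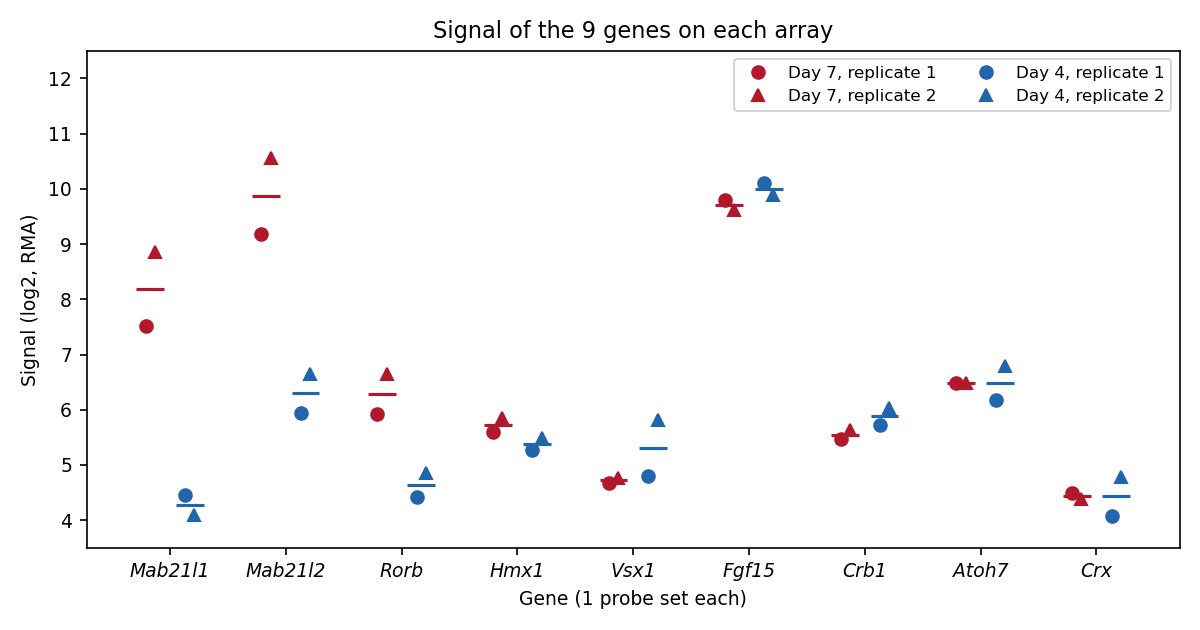
The log2 RMA signal of each of the 9 genes (x axis) on each array, with day 7 in red left of day 4 in blue, circles for replicate 1, triangles for replicate 2 and a line at each day's mean. Mab21l1, Mab21l2 and Rorb stand apart between days with a wide gap between their day 7 arrays. Hmx1, Fgf15, Crb1, Atoh7 and Crx have mean differences between -0.32 and 0.34, and Vsx1 has 1 high array, day 4 replicate 2. Heights of different genes come from different probe sets and cannot be compared.

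Mab21l1 encodes a Mab21 family protein needed in mice for the lens and eye to form. Its log2 signal was 7.51 and 8.85 at day 7, against 4.46 and 4.09 at day 4. Both day 7 arrays lay far above both day 4 arrays, and the second day 7 array was the higher of its pair. The rise was 14.9-fold, with a 95% interval of 7.83-fold to 28.5-fold (log2 difference 3.90, SE 0.395, adjusted p = 0.00142). Only 0.0992% of all genes rose by as much, which put Mab21l1 at rank 22 by size of rise. Its day 4 mean lay under 4.6, the 25th percentile of the mean signal of all genes. Background left in so low a signal can make a fold smaller than the true change, which was not tested here.

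Mab21l2, the close relative of Mab21l1, is needed in mice for growth of the optic vesicle and retina. The log2 signal of Mab21l2 was 9.19 and 10.55 at day 7, against 5.95 and 6.65 at day 4. The days did not overlap, and replicate 2 was the higher array at both days. It was 11.9-fold higher at day 7, with a 95% interval of 5.90-fold to 23.9-fold (log2 difference 3.57, SE 0.428, adjusted p = 0.00278), at rank 28 by size of rise. The arrays of 1 day disagreed on its size. Without day 7 replicate 1 the rise of Mab21l1 was 23.8-fold and that of Mab21l2 19-fold, and without day 7 replicate 2 they were 9.38-fold and 7.41-fold. The adjusted p of both genes stayed between 8.1e-05 and 0.00843 over all alternatives run.

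Rorb encodes an orphan nuclear receptor of retinal progenitors that is needed for rod photoreceptors to form in mice. Rorb had a log2 signal of 5.93 and 6.64 at day 7, against 4.42 and 4.86 at day 4. Again the days were apart and replicate 2 was the higher array at each day. The rise was 3.13-fold, with a 95% interval of 2.04-fold to 4.79-fold (log2 difference 1.64, SE 0.261, adjusted p = 0.00869). It stood at rank 286, with 1.29% of all genes rising by as much. Leaving out 1 array gave log2 differences between 1.29 and 2.00, and the adjusted p was highest, 0.0474, without day 7 replicate 2. Its relative Rora, a receptor gene of many tissues, had a log2 difference of -0.39 (adjusted p = 0.380).

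Promoter windows of 250 bases before to 50 bases after a RefSeq start (build GRCm38.p6) were found for 7 of the 9 genes, without Mab21l1 and Fgf15, and made 8 windows in all, since Rorb had 2. The windows of the called genes Mab21l2 and Rorb are shown because these genes rose together, and that of Crx because it holds the only matches to the core bound by Otx2, whose own values stand beside those of Crx below. Short cores were searched on both strands: TAATTA, bound by homeodomain factors of the Rax and Lhx2 kind; GGATTA, bound by Otx2 and Crx; CAGCTG, the E-box of proneural factors; and CTTTGA, the core bound by TCF and LEF factors. Matches are in capitals, and no matches overlapped. The windows lie at chr3:86548234-86548533 for Mab21l2, at chr19:19111147-19111446 for the first Rorb start, at chr19:19001068-19001367 for the second and at chr7:15879906-15880205 for Crx, all on the minus strand.
Mab21l2: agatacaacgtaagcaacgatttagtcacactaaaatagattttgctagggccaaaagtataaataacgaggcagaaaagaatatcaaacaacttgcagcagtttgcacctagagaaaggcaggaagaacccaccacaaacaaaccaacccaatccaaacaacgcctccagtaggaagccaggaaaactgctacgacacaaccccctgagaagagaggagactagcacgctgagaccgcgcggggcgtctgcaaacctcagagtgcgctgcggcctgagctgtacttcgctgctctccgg
Rorb, first start: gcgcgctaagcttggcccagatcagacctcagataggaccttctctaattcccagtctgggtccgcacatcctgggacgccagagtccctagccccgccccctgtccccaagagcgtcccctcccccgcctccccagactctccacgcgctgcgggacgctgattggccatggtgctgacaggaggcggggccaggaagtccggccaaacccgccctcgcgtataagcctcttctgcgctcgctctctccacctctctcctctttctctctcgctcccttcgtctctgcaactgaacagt
Rorb, second start: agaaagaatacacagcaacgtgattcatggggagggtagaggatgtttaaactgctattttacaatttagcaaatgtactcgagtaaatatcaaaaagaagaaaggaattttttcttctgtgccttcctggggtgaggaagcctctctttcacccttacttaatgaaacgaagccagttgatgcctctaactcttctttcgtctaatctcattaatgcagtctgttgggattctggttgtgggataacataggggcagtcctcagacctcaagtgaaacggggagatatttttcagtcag
Crx: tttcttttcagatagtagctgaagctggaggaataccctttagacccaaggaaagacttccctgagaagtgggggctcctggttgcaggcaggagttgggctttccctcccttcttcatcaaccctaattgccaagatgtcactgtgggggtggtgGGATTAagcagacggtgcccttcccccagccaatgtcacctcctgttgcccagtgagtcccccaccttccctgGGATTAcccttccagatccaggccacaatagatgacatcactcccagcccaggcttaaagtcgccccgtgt

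The Crx window held GGATTA 2 times, with first bases 94 and 21 bases before the start. That core was in 1 of the 8 windows, against 7.06% of all 32851 windows of the same length, on either strand. CAGCTG was matched in 1 of the 8 windows, that of Vsx1, where it occurred 2 times, and in 16.3% of all windows. TAATTA and CTTTGA were in 0 of the 8 windows, against 5.29% and 16.0% of all windows. The GC content of the Mab21l2 window was 49.7% and that of the first Rorb window 63.7%, with 41.0% in the second Rorb window, against a median of 52.7% over all windows.

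Hmx1, a homeobox gene of the developing eye, ear and cranial ganglia, had a log2 signal of 5.59 and 5.85 at day 7, against 5.28 and 5.48 at day 4. The days did not overlap, but by a small margin. The log2 difference was 0.34, with a 95% interval of -0.04 to 0.72 (adjusted p = 0.272), so a rise of up to 1.65-fold lies within the interval. Its relatives Hmx2 and Hmx3 had log2 differences of 0.15 and -0.12 (adjusted p = 0.751 and 0.717). None (0) of these 3 Hmx genes passed limma's test, and the unadjusted p of Hmx1, the lowest of the 3, was 0.0722.

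Vsx1, a paired-type homeobox gene, gave 4.68 and 4.76 at day 7, against 4.80 and 5.82 at day 4. Of the 4 arrays 3 were nearly level, and day 4 replicate 2 alone was high. The log2 difference was -0.59, with a 95% interval of -1.30 to 0.13 (adjusted p = 0.319). Without day 4 replicate 1, which leaves the high array as the only day 4 sample, the log2 difference was -1.10 and passed (adjusted p = 0.00825). Without day 4 replicate 2 it was -0.08 (adjusted p = 0.834). Only 0.613% of all genes had so large a gap between the day 4 arrays as the 1.02 log2 of Vsx1.

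Fgf15 encodes a secreted growth factor of mouse retinal and brain progenitors, the counterpart of human FGF19. It gave 9.79 and 9.61 at day 7, against 10.10 and 9.89 at day 4, a narrow spread on every array. The log2 difference was -0.29, with a 95% interval of -0.66 to 0.07 (adjusted p = 0.332). A second probe set naming Fgf15 gave a much lower signal, 5.72 and 5.83 at day 7, against 5.68 and 5.76 at day 4. There the log2 difference was 0.06 (adjusted p = 0.887), so neither probe set was called, and the sign differed between them. Among the endocrine FGFs, FGF receptors and co-receptors, 1 of 8 rose, against 6.15% of all genes. It was the receptor gene Fgfr3, by 2.27-fold (adjusted p = 0.0147), not called without day 7 replicate 1, where its rise was 1.83-fold. The receptor gene Fgfr4 and its co-receptor gene Klb, through which FGF15 acts, had log2 differences of 0.13 and 0.16 (adjusted p = 0.675 and 0.845).

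Crb1 encodes an apical polarity protein of retinal progenitors and Müller glia, and mutations of its human counterpart cause retinal dystrophy. Crb1 gave 5.47 and 5.63 at day 7, against 5.72 and 6.03 at day 4. Both day 7 values were the lower ones, but the log2 difference of -0.32 had a 95% interval of -0.71 to 0.07 (adjusted p = 0.314). The 9 other genes of the Crumbs complex did not move one way: 1 rose, 3 fell and 5 were not called. Over all genes 6.15% rose and 4.33% fell. Crb2, the Crumbs gene of the neural tube and retina, gave 9.31 and 9.03 at day 7, against 6.61 and 6.97 at day 4, a rise of 5.20-fold (adjusted p = 0.000515). Crb3, the Crumbs gene of most epithelia, gave 6.86 and 7.16 at day 7, against 8.68 and 8.28 at day 4. The fall of Crb3 was 1.47 on the log2 scale (adjusted p = 0.00374). The scaffold gene Patj fell by 1.13 on the log2 scale (adjusted p = 0.00706, and 0.0640 without day 7 replicate 1). The scaffold gene Mpp4, known from photoreceptors, fell by 0.88 (adjusted p = 0.0290), but it was not called without day 4 replicate 2, day 7 replicate 1 or day 7 replicate 2 (adjusted p = 0.0665, 0.104 and 0.197). Mpp5, which binds Crumbs tails directly, had a log2 difference of 0.09 (adjusted p = 0.804). Whether Crb1 differed from Crb2 or Crb3 in its change was not tested.

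**Figure D2:**
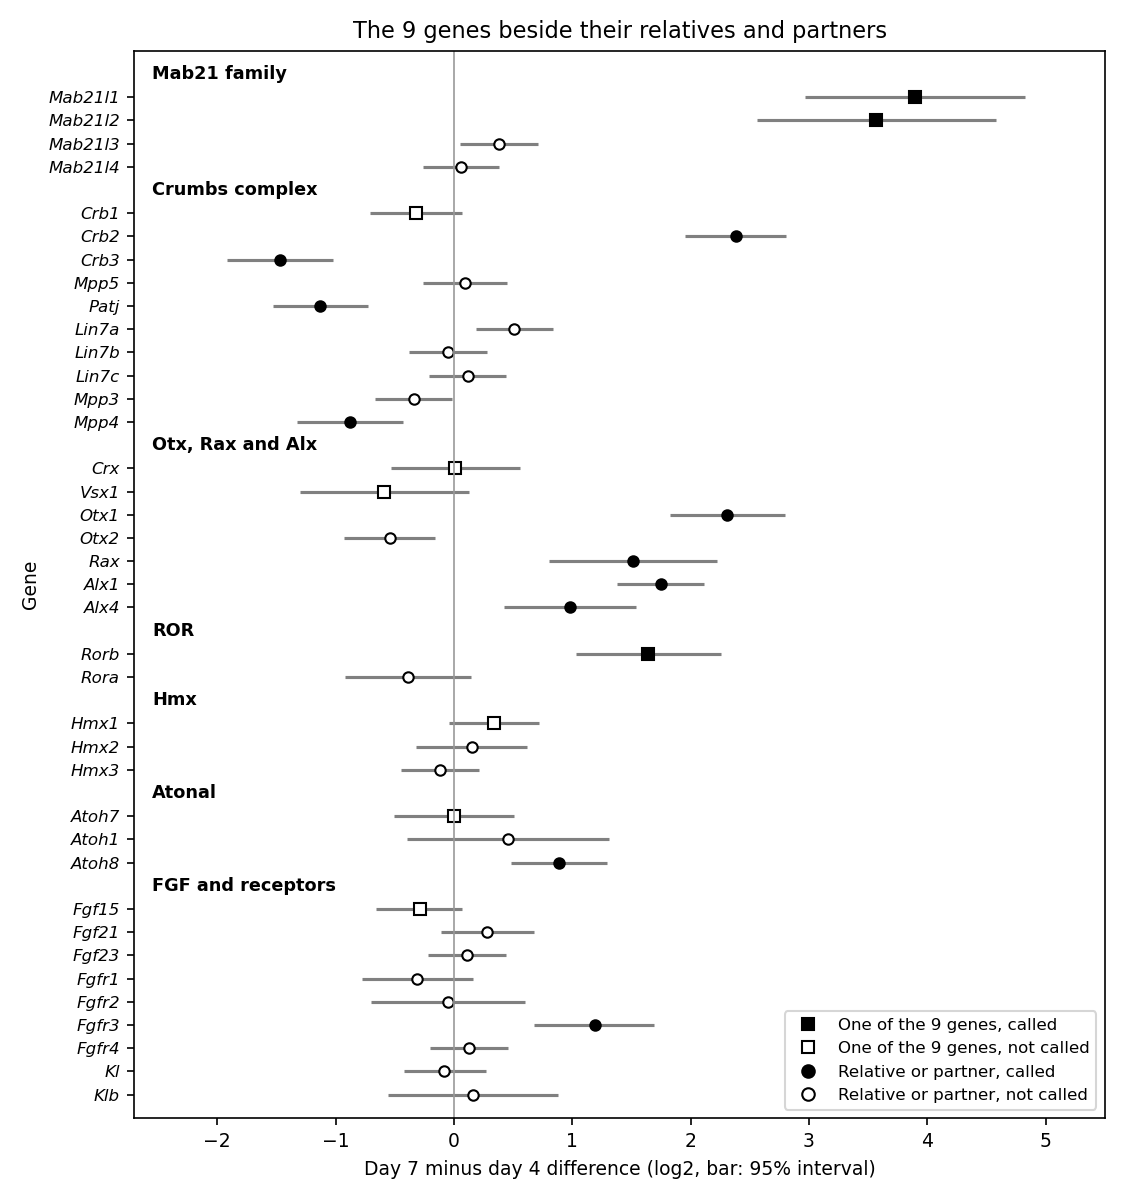
The day 7 minus day 4 log2 difference (x axis) of the 9 genes (squares) and their relatives or partners (circles), with 95% intervals as bars and filled symbols for called genes. Mab21l1 and Mab21l2 lie between 3.57 and 3.90 while Mab21l3 and Mab21l4 lie at 0.38 and 0.06, and Crb2 lies at 2.38 while Crb3 lies at -1.47.

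Atoh7, the basic helix-loop-helix gene needed for retinal ganglion cells, gave 6.48 and 6.49 at day 7, against 6.17 and 6.80 at day 4. The day 7 values fell inside the day 4 range. The log2 difference was -0.001, with a 95% interval of -0.51 to 0.51 (adjusted p = 0.999), which leaves room for a change of up to 1.42-fold. Atoh1, a related gene of hindbrain and inner ear, had a log2 difference of 0.46 (adjusted p = 0.561). Atoh8, a more distant relative, rose 1.85-fold (adjusted p = 0.0196), but it was not called when day 7 replicate 1 (adjusted p = 0.0879), day 7 replicate 2 (0.149) or day 4 replicate 1 (0.0548) was left out.

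Crx, the homeobox gene of photoreceptor precursors, gave 4.49 and 4.39 at day 7, against 4.08 and 4.78 at day 4. Its log2 difference was 0.01, with a 95% interval of -0.53 to 0.56 (adjusted p = 0.990), and the mean signal lay under the 25th percentile at both days. Otx2, which acts upstream of Crx in mouse photoreceptors and binds the GGATTA core marked above, gave 10.25 and 10.55 at day 7, against 10.86 and 11.03 at day 4. Otx2 had a log2 difference of -0.54 (adjusted p = 0.0898). Among the 5 relatives of Vsx1 and Crx measured, 4 rose, against 6.15% of all genes, and Otx2 was not called. Otx1 rose 4.96-fold (adjusted p = 0.000892) and Alx1, of craniofacial mesenchyme, 3.36-fold (adjusted p = 0.000871). Rax, the eye field gene whose promoter drives the GFP of this line, rose 2.85-fold (adjusted p = 0.0210), but it was not called without day 4 replicate 1 or day 7 replicate 2 (adjusted p = 0.0520 and 0.119). Without either of these arrays, 2 of the 5 rose. Neither Otx2 nor Crx was called, and both Otx2 values at day 7 lay below those at day 4. Any link between Otx2 and Crx in these samples was not tested.

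**Figure D3:**
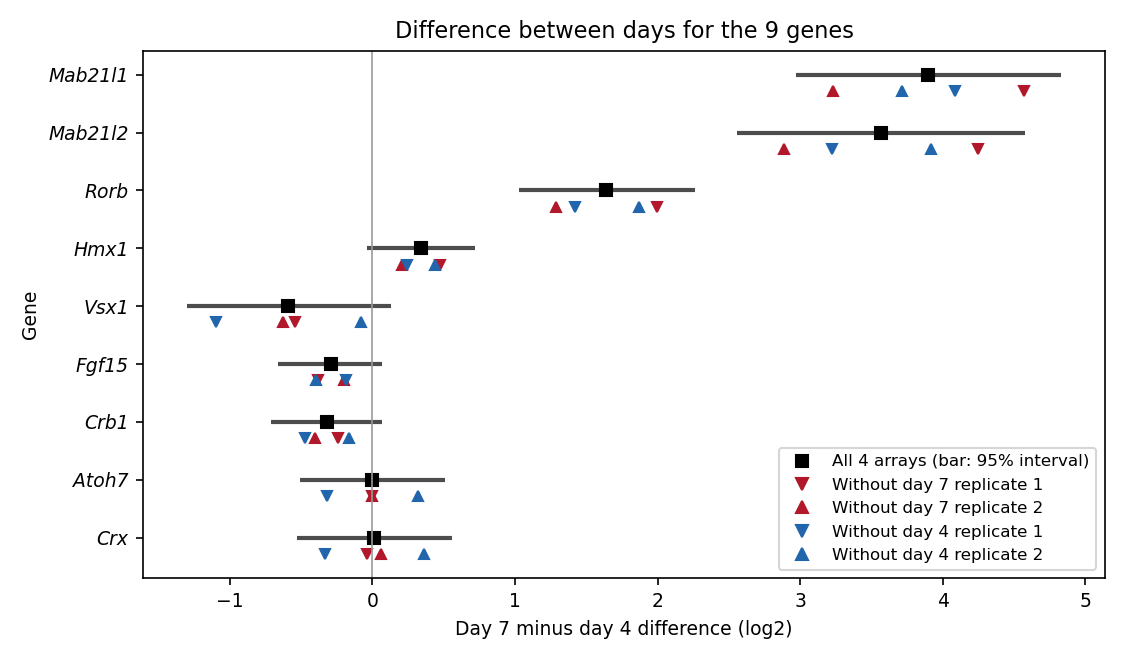
The day 7 minus day 4 log2 difference (x axis) of each of the 9 genes with all 4 arrays (black squares, bars for the 95% interval) and without 1 array (triangles). Mab21l1, Mab21l2 and Rorb stay at 1.29 or above whichever array is left out, and Vsx1 ranges between -1.10 and -0.08.

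The genes of later retinal cells were then set beside Atoh7, Crx and Vsx1. In the photoreceptor list 1 of 20 measured genes rose and 0 fell, with a median log2 difference of -0.01. Over all genes 6.15% rose and 4.33% fell, so this count was near the share of all genes. The same shares stand beside every list count below. The gene that rose was Neurod4, a basic helix-loop-helix gene of neuronal precursors, which gave 6.35 and 6.22 at day 7, against 4.92 and 4.25 at day 4 (3.25-fold, adjusted p = 0.00443). Nrl, the rod determinant, had a log2 difference of -0.21 (adjusted p = 0.446), and Rcvrn, the photoreceptor recoverin gene, 0.27 (adjusted p = 0.455). In the list of ganglion cell and inner retinal neuron genes 5 of 22 were higher at day 7, 2 were lower and the other 15 were not called, with a median of 0.26. The largest rise was that of Tfap2b, an amacrine and horizontal cell factor that is also active in neural crest, at 9.73-fold (adjusted p = 9.12e-05). Neural crest markers, whose part in the value of Tfap2b was not tested, had means of 7.48 and 7.51 at day 7, against 6.46 and 6.55 at day 4, with 4 of 8 called higher. Elavl4, a neuronal RNA-binding protein gene, rose 2.86-fold (adjusted p = 0.00143). Isl1, a factor of ganglion cells and other neurons, rose 2.63-fold (adjusted p = 0.0186, and 0.0818 without day 7 replicate 1). Rbpms, used as a ganglion cell marker, fell by 1.19 on the log2 scale (adjusted p = 0.00282), and Stmn2 by 0.97 (adjusted p = 0.0092, and 0.0946 without day 7 replicate 1). Over the settings that left out 1 array, the called genes of this list varied. The fewest rises came without day 7 replicate 1, the setting with the fewest rises over all genes too.

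Among other genes of retinal progenitors and the optic vesicle 18 of 27 measured rose and 0 fell, with a median log2 difference of 1.01. The shares over all genes were 6.15% and 4.33%. The largest rises were those of Nr2e1, a nuclear receptor gene of neural and retinal progenitors (11.7-fold, adjusted p = 0.000579), Meis1, a homeobox gene of the early eye (11.4-fold, adjusted p = 0.000505), and Pax6, the eye field regulator (11.1-fold, adjusted p = 0.000141). Fewer genes of the list were called with either day 7 array or day 4 replicate 1 left out. Leaving out each of these arrays also lowered the count over all genes. Without day 4 replicate 1 the receptor gene Fzd5 was called lower at day 7 (adjusted p = 0.00703, against 0.117 with all arrays). Of this list, 9 genes were not called, Six3 and Six6 among them, so the rise was not shared by the whole list. Six3 overlapped between days and was only 1.29-fold higher at day 7 (adjusted p = 0.786). Six6 was 4.0-fold higher (adjusted p = 0.0917), with its day 7 arrays far apart, at 7.11 in replicate 1 and 9.33 in replicate 2. Lower means at day 7 were seen in 2 genes of the list, Fzd5 being 1. Pax6 and Nr2e1, like many genes of this list, are also active in the forebrain.

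The day 7 arrays differed in the 3 called genes. Replicate 2 exceeded replicate 1 by 1.34 log2 for Mab21l1, by 1.36 for Mab21l2 and by 0.71 for Rorb. Gaps that large, in either direction, occurred in 0.0902%, 0.0812% and 1.39% of all genes. Over the 58 genes that rose by at least 3 log2, replicate 2 was higher in 23, and 5 had a gap of at least 1, Mab21l1 and Mab21l2 among them. Among the 6 genes not called, the median gap at day 7 was 0.04. Over the 9 genes replicate 2 was the higher day 7 array for 7, against 10501 of all 22180. The median gap was 0.16, against -0.01 over all genes. At day 4, replicate 2 was the higher array for 7 of the 9 genes, against 11430 of all 22180. The median gap there was 0.45, against 0.01 over all genes. For Atoh7, Crx and Mab21l2 the day 4 gap was 0.64, 0.69 and 0.69, which 4.33%, 3.09% and 3.11% of all genes reached.

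**Figure D4:**
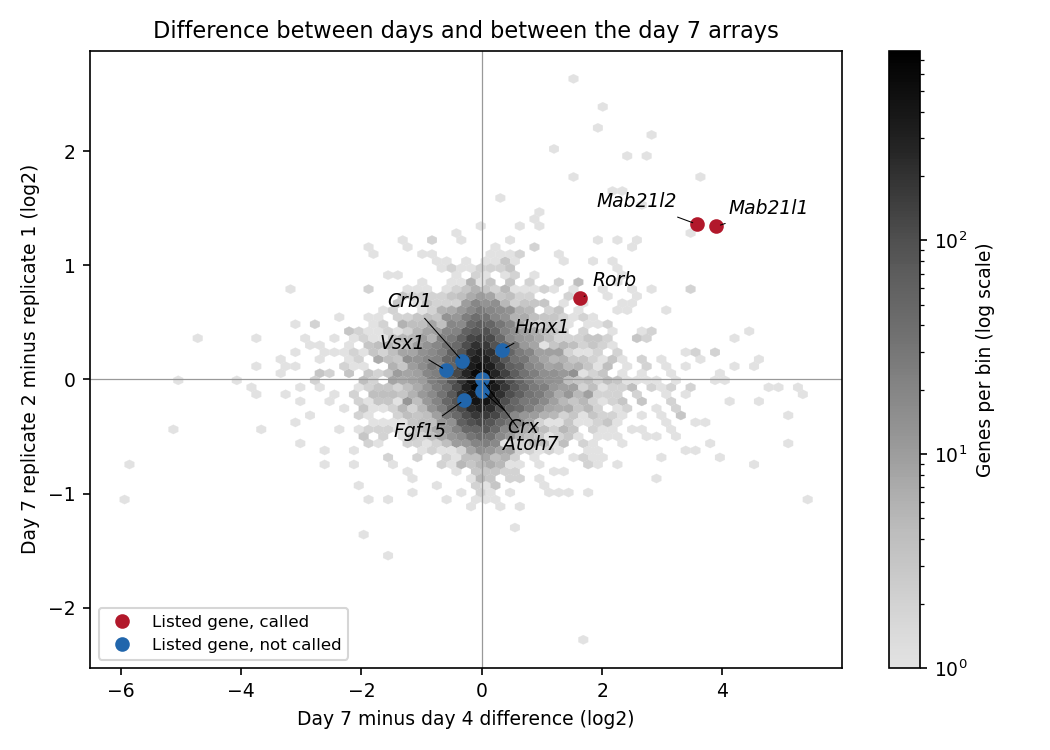
Each gene's day 7 minus day 4 log2 difference (x axis) against the log2 difference between the day 7 arrays, replicate 2 minus replicate 1 (y axis), with all 22180 genes as grey bins on a log scale, red points for the called and blue points for the other genes of the 9. Mab21l1 and Mab21l2 lie at the upper right, at gaps of 1.34 and 1.36, and Rorb at 0.71.

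Markers of other cells were read on the same arrays. Day 7 replicate 2 was the higher day 7 array for 9 of 12 pigment epithelium genes, by a median of 0.61. The mean log2 signal of that list was 5.91 and 6.63 at day 7, against 5.68 and 5.78 at day 4. Of these 12 genes 3 rose and 1 fell, against 6.15% and 4.33% of all genes. Leaving out day 7 replicate 1 gave 5 rises, leaving out day 4 replicate 2 gave 3, and 2 were left when either day 4 replicate 1 or day 7 replicate 2 was dropped. Dct, a melanin synthesis gene, gave 6.69 and 8.66 at day 7, against 4.88 and 5.07 at day 4. Tyr, which makes melanin's first step, gave 3.36 and 3.84 at day 7, against 3.44 and 3.39 at day 4. Pmel, with the widest day 7 gap of the list, gave 7.62 and 10.01 at day 7, against 7.22 and 6.55 at day 4. It was not called by limma's test (log2 difference 1.93, adjusted p = 0.137). The rise of Dct was 6.52-fold (adjusted p = 0.0217), but it was not called without day 4 replicate 1 (adjusted p = 0.0519), and its size was 12.9-fold when day 7 replicate 1 was left out, 3.29-fold when day 7 replicate 2 was. Mitf, the master regulator of pigment cells, rose 2.88-fold (adjusted p = 0.0123), and Trpm1, a channel gene of pigment cells and bipolar cells, 2.82-fold (adjusted p = 0.0088, and 0.0737 without day 7 replicate 2). Bhlhe41, a repressor also active in many other cells, fell by 1.47 on the log2 scale (adjusted p = 0.00109).

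Day 7 replicate 2 was also the higher day 7 array for 5 of 5 optic stalk genes, 7 of 8 endoderm genes, 8 of 9 lens and placode genes and 9 of 10 pluripotent cell genes, by medians of 0.61, 0.57, 0.42 and 0.25. It was the higher one for 6 of 8 neural crest, 5 of 7 mesoderm and 5 of 9 diencephalon genes, by medians of 0.15, 0.32 and 0.09. In the retinal lists these were 16 of 27 progenitor, 13 of 22 ganglion and inner neuron and 12 of 20 photoreceptor genes, by medians of 0.12, 0.17 and 0.07. For the relatives of Vsx1 and Crx they were 5 of 5, by 0.30, and for midbrain and hindbrain 6 of 8, by 0.24. Over all genes it was the higher one for 10501 of 22180, with a median of -0.01. Gaps varied widely within the progenitor list. The largest towards day 7 replicate 2 were 2.22 for Six6, 1.65 for Aldh1a3 and 1.25 for Vax2. Those furthest the other way were -0.68 for Hes5 and -0.62 for Nr2e1. The mean of the optic stalk list was 6.52 and 7.00 at day 7, against 5.62 and 6.08 at day 4, and that of the endoderm list 7.78 and 8.20 at day 7, against 7.62 and 7.69 at day 4. Bmp7, a signal of the early eye, and Pax2, a paired box factor, were the 2 of 5 genes of the optic stalk list that rose, by 4.90-fold (adjusted p = 0.00234) and 3.03-fold (adjusted p = 0.0202), with Pax2 not called without day 4 replicate 1 or day 7 replicate 2 (adjusted p = 0.0505 and 0.108). Of the endoderm genes 2 of 8 rose, against 6.15% of all genes, and the list had a median log2 difference of 0.06. The other 6 were not called, with log2 differences of -0.70 to 0.21. Those that rose were Cxcr4, a chemokine receptor gene, by 5.64-fold (adjusted p = 0.000566), and Sox17, an endoderm regulator, by 1.71-fold (adjusted p = 0.0321). Sox17 was called in only 1 of the settings that left out an array, the one without day 4 replicate 2. Telencephalon genes ran the other way, with 2 of 8 higher in replicate 2 and means of 7.24 and 7.11 at day 7, against 5.73 and 6.15 at day 4. The part of these cells in the values of Mab21l1, Mab21l2 and Rorb was not tested.

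In the neural crest list 4 of 8 genes rose and 1 fell. Over all genes 6.15% rose and 4.33% fell, which also stands beside the lists that follow. The largest rises were those of Pax3, a dorsal neural tube and crest factor (5.83-fold, adjusted p = 0.000394), Sox10, a crest and glial factor (3.79-fold, adjusted p = 0.00271), and Snai2, a repressor of migrating crest cells (3.48-fold, adjusted p = 0.00119), each called whichever array was left out. Foxd3, a crest and stem cell factor, fell by 1.05 on the log2 scale (adjusted p = 0.0253), a call kept only without day 4 replicate 2. Of the lens and placode genes 2 of 9 rose and 0 fell: Eya2 by 7.43-fold (adjusted p = 0.00035) and Eya1 by 4.85-fold (adjusted p = 0.000361), transcription co-activators of placodes and other tissues. The mean of that list was 7.39 and 7.67 at day 7, against 6.88 and 7.19 at day 4. Pluripotent cell genes had means of 7.54 and 7.78 at day 7, against 9.05 and 8.80 at day 4, with 5 of 10 lower and 0 higher. The largest falls were 4.71 log2 for Fgf5, an epiblast growth factor gene (adjusted p = 3.96e-05), 2.55 for Utf1 (adjusted p = 0.00019) and 1.87 for Tdgf1, a Nodal co-receptor gene (adjusted p = 0.00119). In the mesoderm list, with means of 5.85 and 6.08 at day 7, against 5.97 and 6.01 at day 4, 1 of 7 rose and 1 fell. The gene that rose was Kdr, a receptor gene of blood vessel precursors (1.92-fold, adjusted p = 0.0259), called with 1 array left out only without day 7 replicate 1. Eomes, which the telencephalon list also holds, fell by 1.13 on the log2 scale (adjusted p = 0.0034). The part of these cells in the values of the 9 genes was not tested.

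Other brain regions also use some of the 9 genes: Mab21l1, Mab21l2 and Fgf15 are active in midbrain, and Rorb in cortex. Beside the list counts here, 6.15% of all genes rose and 4.33% fell. Among midbrain and hindbrain markers 2 of 8 rose and 0 fell, Wnt1, the midbrain and dorsal midline ligand, by 3.20-fold (adjusted p = 0.0172, and 0.117 without day 7 replicate 2), and Hoxa2, a hindbrain gene, by 2.48-fold (adjusted p = 0.0045). The mean log2 signal of that list was 5.88 and 6.12 at day 7, against 5.25 and 5.61 at day 4. Among telencephalon markers 3 of 8 rose and 1 fell, led by Emx2, a cortical homeobox gene, at 35.8-fold (adjusted p = 3.83e-05). Fezf2, a forebrain zinc finger gene, rose 17.1-fold (adjusted p = 0.00133), or 10.4-fold when day 4 replicate 1 was left out, 28.2-fold when day 4 replicate 2 was. Emx1, a relative of Emx2, rose 1.99-fold (adjusted p = 0.0222), but it was not called without day 7 replicate 1 or day 7 replicate 2 (adjusted p = 0.160 and 0.0969). Of the diencephalon and hypothalamus genes 2 of 9 rose and 0 fell, with means of 7.19 and 7.21 at day 7, against 6.13 and 6.30 at day 4. Wnt8b, a ligand gene of the dorsal forebrain midline, rose 42.7-fold (adjusted p = 3.38e-05), and Dbx1, a progenitor homeobox gene, 1.97-fold (adjusted p = 0.0215), with Dbx1 not called without day 4 replicate 2 or day 7 replicate 1 (adjusted p = 0.0536 and 0.153). Of that list 4 rose without day 4 replicate 2 and 1 without day 7 replicate 1. The part of such cells in the values of the 9 genes was not tested.

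The genes whose pattern over the 4 arrays was most like that of each called gene were found by the Euclidean distance between log2 values centred on each gene's own mean, over 19386 other named genes. For Mab21l1 these were Cp, the gene of the copper-carrying protein ceruloplasmin (distance 0.427), and Meis1 (0.557). Cp gave 7.38 and 8.65 at day 7, against 4.71 and 4.37 at day 4, with the same order of arrays as Mab21l1 at each day. For Mab21l2 they were Serpinb9e (0.287), a member of a cluster of near-identical protease inhibitor genes whose probes may not tell its copies apart, and Minar2 (0.580). For Rorb they were Tmem108 (0.192) and Pax2, the optic stalk gene (0.194). Pax2 gave 6.64 and 7.45 at day 7, against 5.10 and 5.79 at day 4. Between the Mab21 genes themselves the distance was 0.821. Of the other genes, 6 were nearer to Mab21l1 than Mab21l2 was, and 5 were nearer to Mab21l2 than Mab21l1 was. The relatives Mab21l3 and Mab21l4 had log2 differences of 0.38 and 0.06 (adjusted p = 0.155 and 0.863).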

How the data were processed

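Total RNA of 4 samples was measured on Affymetrix gene arrays, 1 sample each. Trizol-extracted RNA was column-purified and its sense cDNA labelled with biotin, per the labels' protocols. The deposited log2 expression values came from Partek 6.5 by RMA, per the submitters' processing notes. That method corrects background, quantile-normalizes and summarises probes, with settings not given in the sources used here. Quantile normalization hides a change shared by most genes.

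The platform annotation gave 1 gene for 23521 of 41345 probe sets, several for 1814 and none for 16010. Identifiers of 23328 were found in the RefSeq table, which changed 0 symbols. The probe set with the highest mean was kept for the 1082 genes with more than 1. Day 7 minus day 4 differences were fitted with limma 3.58.1 (lmFit, eBayes, no trend, 2 residual degrees of freedom) in R 4.3.3. Tests were two-sided and adjusted by Benjamini-Hochberg over 22180 genes, and a gene was called at an adjusted p under 0.05. SEs, p-values and 95% intervals are limma's moderated ones. They join each gene's own variance to one pooled over all genes, which counts as 5.07 prior degrees of freedom. An exact permutation of 2 arrays against 2 cannot give a two-sided p below 0.333. The fit was tested on simulated data. Array medians lay between 5.68 and 5.77, and r across probe sets was 0.991 between the day 7 replicates, 0.986 between those of day 4 and 0.972 to 0.978 across days. Precision is limited by the number of arrays.

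The 9 genes, the lists and their tests were chosen with earlier results of these data known. In each list the up to 3 called genes with the largest rise and fall were named, or the largest difference where none was called. Others were named as family members or after their values were seen (Rcvrn, Nrl, Tyr, Pmel, Fzd5, Six3, Six6, Aldh1a3, Vax2 and Hes5). Listed genes with no probe set naming them alone were not analysed here.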

Additional observations from a re-analysis of the deposited data

How the results depend on the processing

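The calls of Mab21l1, Mab21l2 and Rorb held in each alternative that kept the gene: leaving out each array, the replicate number as a block, quantile normalization, centring on the median, an intensity trend with and without robust estimation, averaging of probe sets, the filter at the 25th percentile of level, and adjusted p limits of 0.01 and 0.1. With genes above the 50th percentile only 3 of the 9 genes were left, and 1 was called, Mab21l2. Of all 11090 genes left by that filter, 2572 were called. Leaving out 1 array gave 3 to 4 called genes among the 9, the fourth being Vsx1, and 887 to 2500 called genes among all, 887 without day 7 replicate 1 and 994 without day 7 replicate 2 against 2324 with all arrays. A single sample then stands for its day and is assumed to vary like the other day. At an adjusted p under 0.01 there were 1078 called genes. Of 102 values of single genes among the 9 under an alternative, 95 kept sign and side of the threshold, 1 newly passed and 6 changed sign, all 6 of genes not called. Atoh7 had log2 differences of -0.319 to 0.317 with 1 array left out, and Crx -0.335 to 0.359. Crx had -0.031 with centred arrays, and Fgf15 had 0.056 by its other probe set. With the replicate number as a block 2770 genes were called, and the same 3 of the 9. The deviations of same-numbered arrays correlated at 0.186, and nothing in the labels says that a number marks a shared batch. With 2 arrays a day, dim genes such as Crx allow no statement on changes within their intervals.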
